A study of Homo sapiens with 4 samples.

Results

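A timing transition region is a stretch of chromosome that joins a domain replicated early in S phase to a domain replicated late, and the 1033 such regions of HCT116, a human colorectal cancer cell line, are described here in single cells of that line and of its derivative DKO1. The values are state codes of single S-phase cells in bins of 80 kb, with code 2 read as replicated and code 1 as unreplicated. Each cell was placed in S phase by its progress, the replicated percent of its called bins, and the share of a bin is the percent of called cells in which it was replicated, averaged over the 6 strata of 10 points of progress from 20 to 80. A bin was kept where the HCT116 shares of the bins starting 400 kb before and 400 kb after it differed by 30 points or more. By this rule 7724 of 25644 bins that could be scored were kept, 30.1%, out of 27704 bins in the whole table, and they cover 618 Mb. Neighbouring kept bins of the same direction, bridging at most 1 bin, form the 1033 regions.

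As background, mammalian chromosomes replicate in megabase domains whose order through S phase is stable from one cell generation to the next, and early domains tend to be gene-rich and open while late domains tend to be gene-poor and attached to the nuclear lamina. Early domains fire clusters of origins nearly together. Transition regions hold few efficient origins, and forks that leave the early domain travel across them toward the late one, so that the position of the border in a cell moves with the cell's progress. DNMT1 copies methylation marks onto newly made DNA strands, DNMT3B adds marks to unmethylated sites, and cells without them lose methylation over much of the genome.

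The cells examined for a difference are DKO1, the HCT116 derivative in which DNMT1 and DNMT3B are knocked out per the study's design text, and they are set against HCT116 labelled WT. Both lines were grown in McCoy's 5A medium with serum, sorted by DNA content into G1, early, mid and late fractions, and the S-phase fractions were pooled in equal numbers for a droplet copy-number library. There is 1 S-phase library per line, with 207 DKO1 cells and 322 HCT116 cells, so every value below compares 2 libraries, no test between the lines was possible and cells are not replicates. The G1 libraries were not analysed here, and whether any DNMT1 or DNMT3B remains in DKO1 was not examined.

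The strata held 12, 42, 56, 49, 39 and 8 DKO1 cells from low to high progress, and 34, 49, 61, 80, 81 and 13 HCT116 cells. The lowest and highest strata therefore rest on few cells, above all in DKO1, although each counts as much as the others. Median progress was 48.0% in DKO1 and 51.9% in HCT116, and mean progress within a stratum differed between the lines by at most 1.12 points. Code 0, treated as not called, took 2.80% of all calls in DKO1 and 1.08% in HCT116. The reads behind a call were not used here, so depth is unknown. The direction of the codes rests on whole chromosomes, since chromosomes with more protein-coding genes per megabase had a higher share of code 2 over the 21 chromosomes compared (Spearman's rho 0.878 in DKO1 and 0.864 in HCT116, as a description).

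The lengths of the regions are set partly by the rule, since with flanks 400 kb away even a sharp step keeps several bins in a row. Their length ran from 80 kb to 1600 kb with a median of 640 kb (quartiles 400 and 800 kb), 52 regions consisted of a single bin and 82 spanned 1 Mb or more. Along the chromosome as numbered, 503 led from early to late and 530 from late to early, so both orientations were about equally frequent. They lay on 21 chromosomes, and chromosome 8, with few bins in the table, held none. The kept share of scored bins was highest on chromosome 16 (42.0%), chromosome 10 (37.5%) and chromosome 20 (36.4%). It was lowest on chromosome 22 (15.1%), chromosome 17 (18.3%) and chromosome 13 (24.4%), which include both early and late chromosomes.

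The transitions were shallower in DKO1. Over the 7724 kept bins, the difference in share across 800 kb, counted in the HCT116 direction and called the slope below, averaged 35.5 points in DKO1 and 49.7 points in HCT116. Its median was 34.7 points in DKO1 (quartiles 25.4 and 44.7) and 46.9 points in HCT116 (quartiles 37.5 and 59.9). The HCT116 slopes chose these bins, so they are a description, while the DKO1 slopes played no part in the choice. The DKO1 slope was below the HCT116 slope in 7143 bins (92.5%). It was lower by 10 points or more in 5104 bins (66.1%), against 31.2% of all scored bins, and higher by 10 points or more in 56 bins (0.725%), against 3.7% of all scored bins. A bin chosen for a high HCT116 slope has more room to be lower in DKO1 than higher, so these counts do not by themselves show how the lines differ.

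**Figure D1:**
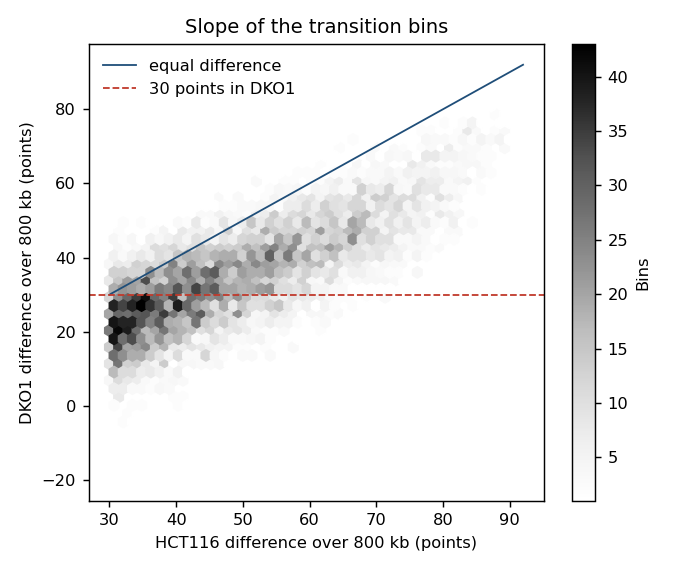
Slope of each of the 7724 transition bins, as the difference in standardised share across 800 kb in percentage points, DKO1 on the vertical axis against HCT116 on the horizontal axis, with darker hexagons holding more bins. Most bins lie under the line of equal difference, with a mean of 35.5 points in DKO1 and 49.7 points in HCT116, and 4817 lie on or above the dashed line at 30 points in DKO1 (62.4%, against 20.5% of all scored bins).

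Other choices of bins gave slopes in the same order. When bins were chosen by the same rule in DKO1 instead, 5253 bins passed, 20.5% of those scored, and their mean slope was 43.3 points in DKO1 and 53.0 points in HCT116. The DKO1 slope was thus lower even where DKO1 did the choosing, by 9.76 points on average, and it was the lower of the pair in 80.6% of those bins. When the bins were chosen in every other HCT116 cell by progress and measured in the remaining HCT116 cells, the mean was 35.4 points in DKO1 and 49.7 points in the HCT116 cells not used for the choice. With the sets exchanged it was 35.2 points in DKO1 and 48.8 points in HCT116. These sets come from the same library, so they show repeatability between cells and not between cultures.

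The transitions largely lay at the same places in both lines. Of the bins chosen in HCT116, 4817 (62.4%) also reached 30 points in the same direction in DKO1, against 20.5% of all scored bins, and these bins were 91.7% of the bins chosen in DKO1. In the shared bins the mean slope was 43.9 points in DKO1 and 55.9 points in HCT116. Only 13 of the 7724 bins sloped in the opposite direction in DKO1. By class of HCT116 slope, the 234 bins at 80 points or more averaged 63.6 points in DKO1 and 83.7 points in HCT116, a mean difference of -20.03 points. The 2511 bins at 30 to 40 points averaged 24.7 points in DKO1 and 34.7 points in HCT116, a difference of -9.99 points. In DKO1 234 of the 234 steepest bins still reached 30 points, as did 698 of the 2511 gentlest (27.8%). That order is largely set by the classes, since a steep bin has to lose far more than a gentle one to miss a fixed threshold.

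Bins on either side of the threshold show how close the choice ran. Just inside it, a bin on chromosome 14 starting at 88320001 had a slope of 24.8 points in DKO1 and 30.001 points in HCT116. Just outside it, a bin on chromosome 3 starting at 18640001 had 10.4 points in DKO1 and 29.99 points in HCT116. Over the 584 bins between 30 and 32 points in HCT116 the mean was 21.8 points in DKO1 and 30.98 points in HCT116, and over the 564 bins between 28 and 30 points it was 19.7 points in DKO1 and 28.996 points in HCT116, with no step at the threshold.

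Among cells with both flanks of a bin called, the slope equals the percent that had replicated only the early flank minus the percent that had replicated only the late flank, so it can be read from single cells. Over these cells it averaged 36.4 points in DKO1 and 50.1 points in HCT116, slightly above the slopes from shares, which also use cells with a single flank called. A cell with only the early flank replicated has its border between the flanks. Such cells made up 38.1% of these DKO1 cells and 50.7% of these HCT116 cells, as the mean over the kept bins and strata. Cells with only the late flank replicated, against the usual order, were 1.67% in DKO1 and 0.537% in HCT116, 3.11 times as many in DKO1. Most of the difference in slope therefore came from fewer DKO1 cells caught with their border between the flanks, and a smaller part from cells in the reverse order. The place of the missing cells was taken from both sides: 29.9% of DKO1 cells and 24.6% of HCT116 cells had replicated both flanks, and 30.4% of DKO1 cells and 24.2% of HCT116 cells had replicated neither. Matching of progress holds the mean share over all bins nearly equal in both lines. How far this sets the near-even split at the kept bins was not tested.

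The same held through S phase. The percent of cells with only the early flank replicated was 31.6% in DKO1 and 40.8% in HCT116 at 20 to 30% progress, 46.9% in DKO1 and 62.2% in HCT116 at 40 to 50%, and 21.6% in DKO1 and 35.5% in HCT116 at 70 to 80%. Both lines peaked in mid S phase, and the DKO1 value was lower in all 6 strata. Late in S phase some DKO1 early flanks were still unreplicated: at 70 to 80% progress 10.6% of DKO1 cells and 3.14% of HCT116 cells had replicated neither flank, although that stratum holds 8 DKO1 cells and 13 HCT116 cells. Early in S phase some late flanks were already replicated, and 5.41% of DKO1 cells and 1.53% of HCT116 cells had replicated both flanks at 20 to 30% progress.

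**Figure D2:**
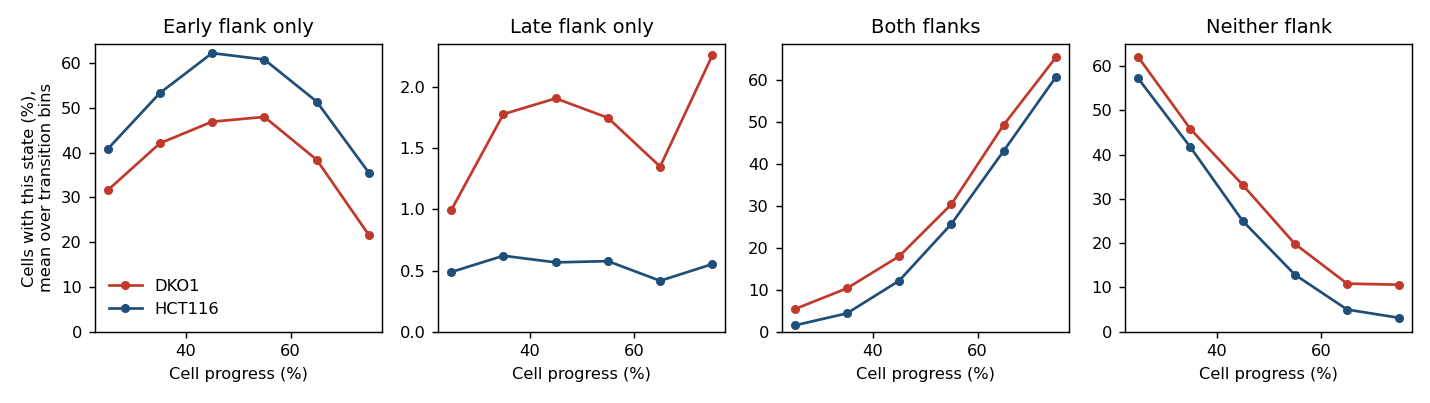
Mean percent of cells over the transition bins that had replicated only the early flank, only the late flank, both flanks or neither, by stratum of cell progress (points at the middle of each stratum), with a vertical scale of its own in each panel. DKO1 lies below HCT116 for the early flank only (46.9% against 62.2% at 40 to 50% progress) and above it in the other panels in each of the 6 strata.

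Across whole regions with 400 kb added on each side, the usual picture of a transition in a single cell was a single switch from replicated on the early side to unreplicated on the late side. It made up 40.4% of DKO1 and 51.6% of HCT116 pairs of a cell and a region, averaged over strata, among 205727 DKO1 pairs and 324566 HCT116 pairs with at least 90% of the window called. A single switch in the reverse order made up 1.72% of pairs in DKO1 and 0.422% in HCT116, and its rate was higher in DKO1 in 689 of 1033 regions (66.7%). Windows entirely replicated were 21.4% of pairs in DKO1 and 16.7% in HCT116, and windows entirely unreplicated 21.4% in DKO1 and 14.1% in HCT116. More than 1 switch was seen in 14.97% of DKO1 pairs and 17.3% of HCT116 pairs, and its rate was higher in DKO1 in 415 regions (40.2%).

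Where a cell had the single switch in the usual order, its position moved toward the late side with progress in both lines. Relative to the HCT116 border (or to the bin of largest HCT116 slope where there was no border), the mean position was -206 kb in DKO1 and -268 kb in HCT116 at 20 to 30% progress, with negative values on the early side. It was -44.2 kb in DKO1 and -50.9 kb in HCT116 at 40 to 50%, 187 kb in DKO1 and 192 kb in HCT116 at 60 to 70%, and 284 kb in DKO1 and 302 kb in HCT116 at 70 to 80%. The mean front thus followed a similar course in both lines, with positions bounded by the window. Cells of the same stratum were more scattered in DKO1, where the switch position varied by 254 kb (SD within region and stratum, over 90766 switches), against 200.3 kb in HCT116 (176790 switches).

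Both ends of the regions differed. On the early side, at the bin 400 kb outside the outermost kept bin, the mean share was 69.4% in DKO1 and 77.5% in HCT116, and on the late side it was 29.8% in DKO1 and 23.4% in HCT116. The step across the whole region was therefore 39.6 points in DKO1 and 54.1 points in HCT116. In 623 of 1033 regions (60.3%) neither side differed by 15 points or more. In 216 regions only the early side was lower in DKO1 by 15 points or more, in 156 only the late side was higher by as much, and in 7 both were. Over all scored bins the share was lower in DKO1 by 15 points or more in 7.94% and higher by as much in 6.69%. Changes that would deepen a transition were rarer, with an early side higher by 15 points or more in 12 regions and a late side lower by as much in 19. Since the sides were picked by HCT116, a lower early side and a higher late side are the directions the choice favours.

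Averaged over the 733 regions with a border in both lines (defined below), the profile was lower before the border and higher after it in DKO1. At 400 kb on the early side of the HCT116 border the mean share was 69.8% in DKO1 and 78.4% in HCT116, and at 400 kb on the late side it was 29.8% in DKO1 and 22.8% in HCT116. At the border itself it was 49.2% in DKO1 and 50% by construction in HCT116. Centring every region on the DKO1 border instead kept the order and narrowed the gap, with 70.3% in DKO1 and 76.6% in HCT116 on the early side and 30.3% in DKO1 and 25.8% in HCT116 on the late side. The difference was then -6.35 points on the early side and 4.46 points on the late side, against -8.57 and 6.93 points with the HCT116 border. With each line centred on its own borders, the distance over which the mean profile passed between 65 and 35% was 463 kb in DKO1 and 290 kb in HCT116. By 2 Mb from the HCT116 border the lines came close again, at 54.8% in DKO1 and 55.8% in HCT116 on the early side.

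**Figure D3:**
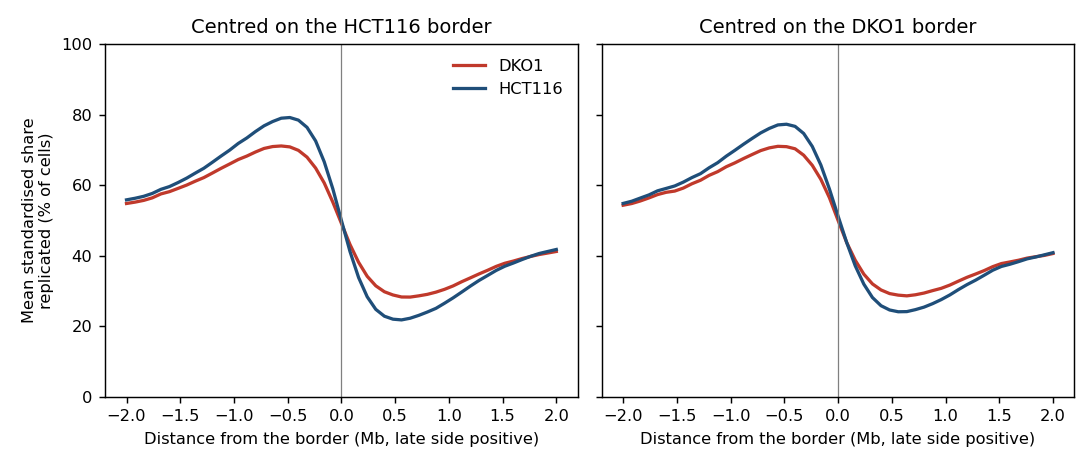
Mean standardised share replicated, in percent of cells, by distance from the border in Mb, over the 733 regions with a border in both lines, centred on the HCT116 border (left) and on the DKO1 border (right). In both panels the DKO1 curve is lower on the early side and higher on the late side within about 1 Mb, with 69.8% in DKO1 and 78.4% in HCT116 at 400 kb on the early side of the HCT116 border.

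The passage of the border was also more drawn out in progress. At the HCT116 border, 12.2% of DKO1 cells and 6.03% of HCT116 cells had replicated the site at 20 to 30% progress, and 23.7% of DKO1 and 14.9% of HCT116 cells at 30 to 40%. The lines crossed in the middle, with 38.3% in DKO1 and 35.7% in HCT116 at 40 to 50% and 58.6% in DKO1 and 63.2% in HCT116 at 50 to 60%. At 70 to 80% it was 83.2% in DKO1 and 94.2% in HCT116. The contrast was smaller with the regions centred on DKO1 borders, where the lowest stratum had 11.5% in DKO1 and 9.92% in HCT116, and the highest 84.6% in DKO1 and 92.1% in HCT116.

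The border of a region was taken as the place where the share crosses 50% in the direction of the region, and the DKO1 border as the nearest such crossing within 1 Mb. HCT116 had a border in 859 regions. Of the other 174, both sides lay above 50% in 97 and below 50% in 73, and in the rest no crossing was found in the window. DKO1 had a matching border in 733 of the 859 (85.3%), and since neighbouring regions can share a border, the 733 rest on 720 different HCT116 positions. A positive shift means that the DKO1 border lay nearer the late domain, so that the early domain reached farther.

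Borders found in both lines moved in both directions and, on balance, little. The median shift was -17.8 kb, less than a bin, with quartiles of -113 and 73.2 kb. Matching by progress limits this balance, since a share gained in some places has to be offset in others. Without matching the median was -28.9 kb. The 126 regions with a border in HCT116 only have no shift, and taking the nearest crossing within 1 Mb favours small shifts. In 41 of the 733 regions DKO1 had more than 1 crossing within that distance. The DKO1 border lay within 80 kb of the HCT116 border in 325 regions (44.3%), at least 80 kb toward the late side in 176 (24.0%) and at least 80 kb toward the early side in 232 (31.7%). Shifts of 400 kb or more numbered 16 toward the late side and 34 toward the early side. The direction of the balance was not stable: it was 8.94 kb toward the late side with borders at 40% and -0.262 kb with borders at the midpoint between the sides of each line.

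Shifts between the lines were larger than those between alternate cells of a library. The median absolute shift was 91.4 kb between the lines, 55.5 kb between alternate DKO1 cells and 23.5 kb between alternate HCT116 cells. A shift of 80 kb or more was found in 55.7% of regions between the lines, in 34.4% between the 104 and 103 alternate DKO1 cells and in 9.79% between the 161 and 161 alternate HCT116 cells. The alternate sets hold fewer cells than the whole libraries, and they leave out differences between cultures. Their regions also differ, since they were chosen anew in alternate cells (659 in DKO1 and 858 in HCT116). With borders at the midpoint of each line, shifts between the lines were smaller. Their median absolute value was then 56.4 kb, with 37.0% of 1028 regions at 80 kb or more. Midpoint borders were not compared between alternate cells.

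**Figure D4:**
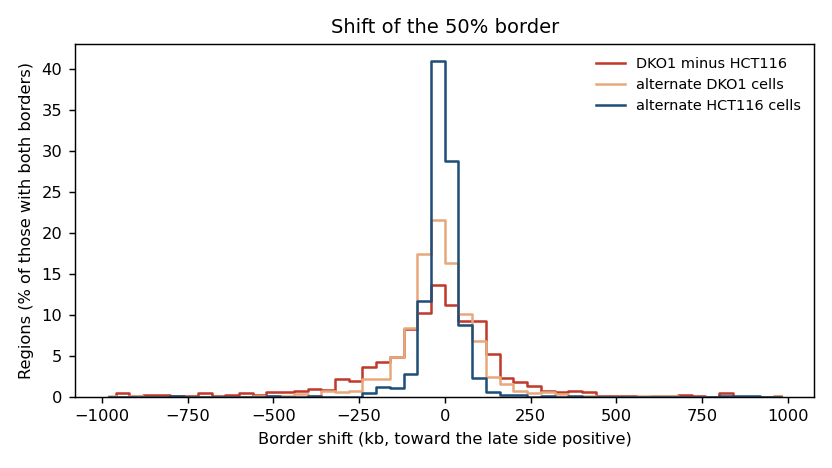
Distribution of the shift of the 50% border in kb, positive toward the late side, as percent of the regions with both borders. It is drawn for DKO1 minus HCT116 (733 regions), for alternate DKO1 cells against each other (659 regions) and for alternate HCT116 cells against each other (858 regions). The regions were chosen anew for each comparison. The shift between the lines is the widest, with 55.7% of regions at 80 kb or more, against 34.4% in alternate DKO1 cells and 9.79% in alternate HCT116 cells.

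Early domains bounded by 2 such borders were somewhat narrower in DKO1 at the 50% level. Domain widths were computed at this level only, and the direction of the border shift depended on the level. Over the regions the median shift was 8.94 kb with borders at 40% and -0.262 kb with borders at the midpoint of each line. A fixed level cannot separate moved borders from a lower peak share, and whether domains were narrower at other levels was not tested. Among 255 early domains with neighbouring borders found in both lines, the median width was 1430 kb in DKO1 and 1552 kb in HCT116. The median change was -45.4 kb, and 120 domains were narrower by 80 kb or more while 66 were wider by as much. The change depended on size, with a median of -95.2 kb in the 67 domains under 1 Mb, -84.3 kb in the 90 domains of 1 to 2 Mb, and -0.00602 kb in the 98 domains of 2 Mb or more. The peak share of a domain was lower as well, averaging 65.5% in DKO1 and 77.02% in HCT116 under 1 Mb, against 88.3% in DKO1 and 94.96% in HCT116 at 2 Mb or more. In 52 early domains both borders lay at least 80 kb toward the inside in DKO1, and in 20 both lay at least 80 kb outside.

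The 253 late domains mirrored this in depth more than in width. Their median width was 1743 kb in DKO1 and 1663 kb in HCT116, with a median change of 3.28 kb. The lowest share inside them averaged 21.1% in DKO1 and 10.5% in HCT116 at 1 to 2 Mb, and 9.96% in DKO1 and 4.55% in HCT116 at 2 Mb or more. The early domain that narrowed most lay on chromosome 20 between regions starting at 7360001 and ending at 9760000, with a width of 334 kb in DKO1 and 1579 kb in HCT116 and a peak share of 60.3% in DKO1 and 73.8% in HCT116. The early domain that widened most lay on chromosome 11 between 58640001 and 59920000, with 1696 kb in DKO1 and 826 kb in HCT116 and a peak share of 82.1% in DKO1 and 89.6% in HCT116.

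Slopes were lower in DKO1 on all 21 chromosomes that held transitions. The ratio of the mean slopes, DKO1 over HCT116, was lowest on chromosome 4 (0.646, with 30.8 points in DKO1 and 47.7 points in HCT116) and chromosome 3 (0.661, with 31.5 points in DKO1 and 47.7 points in HCT116). It was highest on chromosome 22, where 19 bins averaged 45.2 points in DKO1 and 50.7 points in HCT116, and on chromosome 16, with 46.8 points in DKO1 and 57.1 points in HCT116. Chromosome 16 also had the steepest HCT116 transitions of any chromosome and chromosome 13 the gentlest, with 30.3 points in DKO1 and 44.2 points in HCT116.

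The direction of border shifts differed between chromosomes. On chromosome 4, 27 of 48 borders lay at least 80 kb toward the early side in DKO1 and 9 toward the late side, with a median of -104 kb. Chromosome 18 had 9 toward the early side and 1 toward the late side among 20 borders (median -75.2 kb), and chromosome 2 had 29 and 7 among 66. Gene-dense chromosome 19 ran the other way, with 1 toward the early side and 7 toward the late side among 11 (median 91.3 kb), and chromosome 16 had 3 and 9 among 28. The late sides of the chromosome 19 regions were higher in DKO1 by 14.1 points on average and the early sides changed by -0.429 points. On chromosome 4 the early sides changed by -13.5 points and the late sides were higher by 4.03 points. Across the 19 chromosomes with at least 10 borders, the median shift followed the density of protein-coding genes with a Spearman's rho of 0.642 and a Pearson's r of 0.716, as a description over points that share the same cells. With borders at the midpoint of each line these values were 0.0842 and 0.340. The median midpoint shift was -1.46 kb on chromosome 4, 1.92 kb on chromosome 18 and -0.571 kb on chromosome 2. On chromosome 16 it was 4.20 kb and on chromosome 19 it was 23.8 kb. The contrast between chromosomes was thus far smaller by the midpoint than by the 50% border.

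Single regions showed transitions that were kept, lost or displaced. The 5 steepest of HCT116 were all kept. On chromosome 7 from 147600001 to 148640000 the slope was 60.8 points in DKO1 and 90.5 points in HCT116, the steepest of all. There the share of the late side was 12.1% in DKO1 and 0.417% in HCT116, the border shift was -41.96 kb, and the early side alone was replicated in 168 of 187 DKO1 cells (89.8%, with an exact 95% interval of 84.6 to 93.8%) and in 312 of 314 HCT116 cells (99.4%, 97.7 to 99.9%). Such intervals are binomial (Clopper-Pearson), are not matched in progress and cover the counting of cells only. On chromosome 6 from 56880001 to 57600000 the slope was nearly the same, 83.0 points in DKO1 and 90.1 points in HCT116, with a border shift of -6.05 kb. The others lay on chromosome 10 from 960001 to 1920000 (76.3 points in DKO1 and 90.2 in HCT116), chromosome 1 from 5200001 to 6160000 (74.5 points in DKO1 and 89.7 in HCT116) and chromosome 19 from 19600001 to 20080000 (69.2 points in DKO1 and 89.5 in HCT116).

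The largest loss of slope lay on chromosome 10 from 10080001 to 11040000, with 10.5 points in DKO1 and 62.0 points in HCT116. Its neighbour from 11280001 to 11680000 had the second largest gain, with 53.0 points in DKO1 and 36.7 points in HCT116. In HCT116 the descent from the early domain had a shoulder about where the regions meet. The late side of the second region, a bin inside the first region, had a share of 24.8% in DKO1 and 67.9% in HCT116. In DKO1 the shoulder was gone and the border lay 596 kb toward the early side. At 50 to 60% progress that site was replicated in 20.4% of DKO1 cells and 85% of HCT116 cells, while the early domain itself had reached 98.0% in DKO1 and 100% in HCT116.

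Other losses went with a lowered early side, a raised late side or a displaced border. On chromosome 12 from 87760001 to 88800000 the slope was 33.7 points in DKO1 and 73.1 points in HCT116. The early side was at 51.1% in DKO1 and 97.8% in HCT116, and the late side was at 12.9% in DKO1 and 8.34% in HCT116. At 20 to 30% progress the early side was replicated in 0% of DKO1 cells and 97.1% of HCT116 cells, in strata of 12 DKO1 and 34 HCT116 cells, and at 50 to 60% in 59.2% of DKO1 and 98.8% of HCT116 cells. The 50% border lay 806 kb toward the early side, but the midpoint of the remaining DKO1 step lay 2.99 kb from that of HCT116, so the step stayed in place and lost height. On chromosome 1 from 57040001 to 57920000 (22.9 points in DKO1 and 71.1 in HCT116) and chromosome 7 from 119840001 to 120800000 (24.9 points in DKO1 and 72.5 in HCT116) the early sides were at 31.1% in DKO1 and 73.5% in HCT116 and at 42.7% in DKO1 and 83.3% in HCT116, and DKO1 had no 50% border within 1 Mb.

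On chromosome 2 from 19680001 to 20400000 the late side was higher in DKO1 instead. The slope was 34.5 points in DKO1 and 81.7 points in HCT116, the early side was at 87.1% in DKO1 and 95.5% in HCT116, and the late side at 43.3% in DKO1 and 4.34% in HCT116. Both sides were replicated in 74 of 188 DKO1 cells (39.4%, with an exact interval of 32.3 to 46.7%) and in 9 of 310 HCT116 cells (2.90%, 1.34 to 5.44%). At 60 to 70% progress the late side was replicated in 75.7% of DKO1 cells and 6.41% of HCT116 cells. The last of the 5 largest losses, on chromosome 12 from 115760001 to 116880000, had 35.4 points in DKO1 and 82.3 points in HCT116. Its border lay 426 kb and its midpoint 371 kb toward the early side. The early side was at 79.6% in DKO1 and 96.9% in HCT116, and the late side at 6.75% in DKO1 and 3.94% in HCT116.

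**Figure D5:**
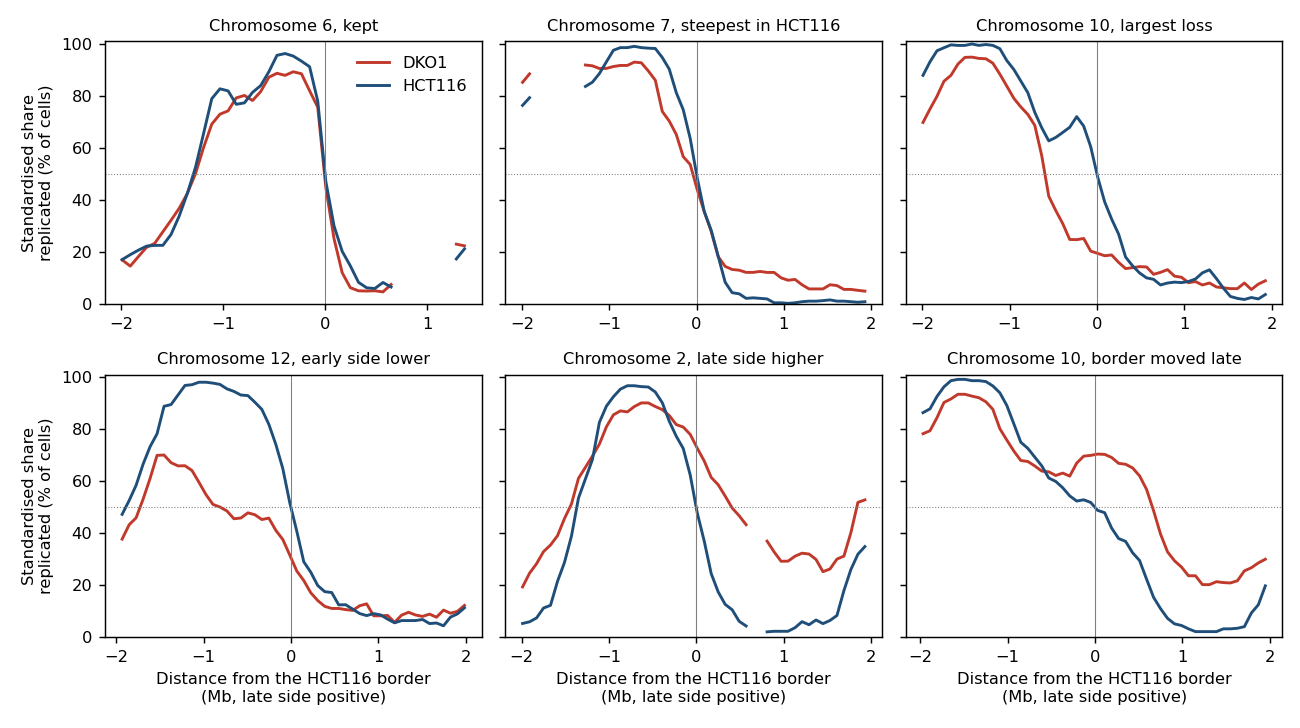
Standardised share replicated, in percent of cells, by distance from the HCT116 border in Mb, for 6 named regions with gaps where the table has no bins. The chromosome 6 transition nearly coincides in both lines (slope 83.0 points in DKO1 and 90.1 in HCT116), the chromosome 10 shoulder is absent in DKO1, the early side is lower in DKO1 on chromosome 12 (51.1% against 97.8%) and the late side is higher in DKO1 on chromosome 2 (43.3% against 4.34%).

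At the steepest HCT116 bin of each region, 4 regions gained 10 points or more in DKO1 and 796 lost as much, against 3.7% and 31.2% of all scored bins. Picking that bin by its HCT116 slope favours losses. Among the 5253 bins chosen in DKO1, 312 (5.94%) were steeper there by 10 points or more. The largest gain was on chromosome 7 at the single bin from 55920001 to 56000000, with 50.4 points in DKO1 and 32.1 points in HCT116, where the late side was at 7.09% in DKO1 and 32.7% in HCT116. On chromosome 17 from 69920001 to 70080000 the slope was 61.5 points in DKO1 and 47.9 points in HCT116, with the early side at 82.2% in DKO1 and 58.7% in HCT116 and the border 389 kb toward the late side. The remaining gains of the 5 largest lay on chromosome 12 from 16320001 to 16480000 (45.7 points in DKO1 and 32.2 in HCT116) and on chromosome 4 from 87440001 to 87680000 (42.6 points in DKO1 and 36.0 in HCT116).

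The largest shifts of the 50% border mostly marked places where the profile runs close to 50%. Of the 8 farthest toward the late side, chromosome 1 from 156880001 to 157520000 had a shift of 831 kb by the 50% border and 12.5 kb by the midpoint, with late sides at 65.2% in DKO1 and 58.1% in HCT116. The same contrast held on chromosome 3 from 129520001 to 130240000 (718 and 46.8 kb) and on chromosome 11 from 18480001 to 19200000 (625 and 7.17 kb) and from 58640001 to 59280000 (745 and 71.8 kb). Both regions of chromosome 13 on the list, from 98240001 to 98480000 and from 98640001 to 98880000, share a border that shifted by 819 kb, while their midpoints lay 124 and 8.93 kb toward the early side. On chromosome 2 from 74880001 to 76240000 both measures were large, 549.8 kb and 486 kb, and the early sides were level, at 97.0% in DKO1 and 99.2% in HCT116. On chromosome 10 from 116320001 to 117040000 the values were 658 and 180.4 kb, with an early side of 67.0% in DKO1 and 52.4% in HCT116 and almost the same slope, 40.9 points in DKO1 and 42.8 points in HCT116.

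Toward the early side the picture was alike. On chromosome 18 from 57760001 to 58240000 the 50% border lay 954 kb away and the midpoint 4.43 kb away, with an early side of 38.5% in DKO1 and 54.7% in HCT116. Chromosome 20 had shifts of 942 kb in the region from 54320001 to 54960000 and of 927 kb in that from 7360001 to 8000000, the first with a midpoint 124 kb toward the early side and the second with a midpoint 37.3 kb toward the late side. The chromosome 4 region from 115440001 to 116080000 shifted by 890.4 kb and the chromosome 5 region from 158160001 to 158640000 by 877 kb, with midpoints 149 and 23.1 kb toward the late side. On chromosome 6 from 128960001 to 129760000 the border lay 865 kb and the midpoint 241 kb toward the early side, and the slope was 8.96 points in DKO1 and 36.9 points in HCT116. On chromosome 1 from 164080001 to 164480000 the values were 838 and 498 kb, and the step had all but vanished, with 28.05% in DKO1 and 57.7% in HCT116 on the early side and 26.5% in DKO1 and 22.1% in HCT116 on the late side. There the early side alone was replicated in 24 of 200 DKO1 cells (12%, with an exact interval of 7.84 to 17.3%) and in 132 of 316 HCT116 cells (41.8%, 36.3 to 47.4%).

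The longest regions, ramps of 17 to 19 bins, were also shallower in DKO1. On chromosome 1 from 100720001 to 102320000 the steepest slope was 31.8 points in DKO1 and 54.4 points in HCT116, and the border lay 555 kb toward the early side. On chromosome 5 from 134560001 to 136000000 it was 40.6 points in DKO1 and 54.1 points in HCT116, and the border lay 406 kb toward the late side, with a late side of 25.2% in DKO1 and 5.00% in HCT116. The chromosome 9 ramp from 31600001 to 33120000 had 36.6 points in DKO1 and 45.9 points in HCT116. The chromosome 15 ramp from 61920001 to 63440000 had 34.0 points in DKO1 and 49.96 points in HCT116.

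The kept bins differed between the lines by 15 points or more at rates not far from those of all scored bins. The share was lower in DKO1 by that much in 808 kept bins (10.5%), against 7.94% of all scored bins and 6.86% of the others. It was higher by as much in 731 (9.46%), against 6.69% of all scored bins and 5.50% of the others. The median absolute difference was 7.60 points in the kept bins and 5.602 points in the others. The mean share was nearly the same in both lines, at 49.5% in DKO1 and 49.99% in HCT116. Over all scored bins it was 49.2% in DKO1 and 49.5% in HCT116. Matching by progress holds the mean over all bins nearly equal. Rises and falls also cancel in such means, so they do not show that levels were unchanged. Shares between 20 and 80% were found in 78.3% of the kept bins in DKO1 and 67.5% in HCT116, and in 39.0% of the other bins in DKO1 and 29.9% in HCT116. The rule itself favours such bins in HCT116. Intermediate shares carry the most counting error, so these rates do not show that transitions differed more between the lines than other bins. The kept bins lay a median of 31.6 Mb from the outermost bin of their chromosome and the others 33.3 Mb.

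Uncalled bins moved with the line. Code 0 took 2.39% of calls in the kept bins in DKO1 and 0.773% in HCT116, and the slope was also computed from the best-called cells, those with 1% or less of code 0, which were 61 DKO1 and 188 HCT116 cells at 30 to 70% progress, with the bins chosen anew. In these cells the mean slope was 44.4 points in DKO1 and 55.7 points in HCT116, a difference of -11.3 points, against 40.01 points in DKO1 and 54.6 points in HCT116 and a difference of -14.5 points over all cells of those strata. The late side differed by 3.81 points in them and the early side by -6.57 points. Single chromosomes of a cell that lay over 15 points off their usual relation to progress were 4.90% in DKO1 and 2.36% in HCT116, and leaving them out gave 36.3 points in DKO1 and 49.98 points in HCT116.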

How the data were processed

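Per the file headers, each column of the deposited table is a cell of DKO1 or HCT116 and each row a bin of 80 kb, and the authors deposited state codes of 0, 1 or 2, which its name ties to a binarising hidden Markov model. The build is hg19 (GRCh37), and the tools include bedtools 2.26.0, SAMtools 1.10 and Cell Ranger, all per the submitters' processing notes. Which software fitted the model, and with which filters, is not given in the sources used here. A model that smooths along the chromosome can displace or sharpen a border within a cell. Coordinates are those of the table, and the last bin of chromosome 1 ends at 249200000. No annotation of that build was used, so no genes or sequences are given. Gene density per chromosome counts protein-coding genes of RefSeq on GRCh38.p14.

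From the codes, progress, shares, slopes, regions and borders were computed with Python 3.11.15, NumPy 2.4.6, pandas 2.3.3 and SciPy 1.17.1, and the functions were checked on simulated cells with known borders. A bin was scored if both flanking bins were in the table (2024 bins lacked one) and had called cells in all 6 strata (36 more did not). Of the kept bins, 7593 were called, together with both flanks, in 90% or more of the cells in each line. Borders were interpolated between bin centres. Named regions are the 8 with the largest shift in each direction (at least 3 bins), the 5 steepest in HCT116, the 5 with the largest loss and gain of slope, and the 5 longest, on chromosomes with at least 100 bins. The members, rules and lists were chosen with earlier results of these data known. No test was run, since each line is 1 library, and no doublet caller was run. Alternatives were another threshold, flank distance, call filter, strata, reading of code 0, choice of cells, choice of line, border level and search distance.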

Additional observations from a re-analysis of the deposited data

Results flagged for a closer look

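Code 0, which the comparisons leave out, stood out because it was more frequent in the transition bins of DKO1 than in those of HCT116, with 2.39% of calls in DKO1 and 0.773% in HCT116. In the other scored bins it took 2.74% in DKO1 and 0.919% in HCT116, so it was no more frequent at transitions than elsewhere. The table does not define the code.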

How the results depend on the processing

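No paired analysis was possible because each line is 1 library. Of 167 values recomputed under alternatives, 157 stayed within 1.5 times the reported value with the same sign. The mean slope was lower in DKO1 under all 13 alternatives, by -16.2 to -9.76 points. Flanks at 240 kb kept 4719 bins. The median border shift was the unstable value: -10.2 kb with a threshold of 40 points, -6.14 kb with the 4 strata from 30 to 70, -28.9 kb without matching of progress, -1.49 kb with code 0 as unreplicated, -1.93 kb in cells with 1% or less of code 0, -11.2 kb with bins chosen in DKO1 and -0.262 kb at the midpoint of each line, and it turned to 8.94 kb with borders at 40%; the cause was not tested. In cells with little code 0 the late side differed by 3.81 points, against 6.33 over all cells of the 6 strata. Borders 80 kb or more toward the late side numbered 138 to 209 and toward the early side 183 to 269 over the 17 alternatives, and the early side was the more frequent except with borders at 40%. The state patterns in cells with little code 0 (a reverse switch in 1.32% of pairs in DKO1 and 0.327% in HCT116) and the comparison of borders between alternate cells were added after seeing the data. Bins of 80 kb and few cells at 20 to 30% and 70 to 80% progress limit the precision.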

Other observations

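Some bins passed the rule in DKO1 but not in HCT116. Of the 5253 bins chosen in DKO1, 436 did not pass in HCT116 in the same direction, with a mean slope of 35.7 points in DKO1 and 21.2 points in HCT116. Their median slope in HCT116 was 22.9 points (quartiles 17.7 and 26.8), so most sloped the same way there below the threshold. Only 8 of these bins sloped the other way in HCT116. The DKO1 values chose these bins, so the difference is a description. Of the 793 regions formed in DKO1, 47 held no bin chosen in HCT116, 22 of them with at least 3 bins. The 4 with the largest difference were picked after their values were seen. Both of the first lay on chromosome 1, from 198720001 to 198960000 (33.0 points in DKO1 and -19.9 points in HCT116) and from 199760001 to 200720000 (61.5 points in DKO1 and 11.8 points in HCT116). In the second the early side was at 92.3% in DKO1 and 87.6% in HCT116 and the late side at 14.7% in DKO1 and 69.2% in HCT116. The third lay on chromosome 3 from 159360001 to 159680000 (38.0 points in DKO1 and 3.52 points in HCT116). On chromosome 17 from 8320001 to 9200000 the slope was 53.5 points in DKO1 and 26.2 points in HCT116, with the early side at 100% in DKO1 and 99.5% in HCT116 and the late side at 38.5% in DKO1 and 67.2% in HCT116.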
